A study of Mus musculus with 15 samples.

Results

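The study profiled RNA from distal colons of 15 mice in 5 groups of 3, and 2 of these groups are both untreated C57BL/6 (B6) wildtype mice. They are compared here with each other, so that the 6 libraries differ in no genotype or treatment that the labels record. Control set 1 is the group deposited beside B6 mice at day 26 (D26) of AOM/DSS, and control set 2 is the one deposited beside untreated Irf1-/- mutants. The 6 libraries of the 15 were chosen by these 2 count tables, joined on gene symbol, and 12417 genes were in both tables. Of the other 9 libraries, which are used below only for context, 3 came from untreated Irf1-/- mutants, which lack interferon regulatory factor 1 in every cell and carry the C57BL/6 strain label. The remaining 6 came from B6 mice and Irf1-/- mutants that had received 1 injection of AOM (azoxymethane, an alkylating colon carcinogen) at 7 mg/kg and 1 cycle of 2% DSS (dextran sulfate, which injures the colonic epithelium) and were sacrificed at D26. The sources used here give no sex, age, cage, collection date or time of day for single mice, the study's methods give an age range for mice of its tumour model but not for the untreated mice, and the sources do not say why untreated B6 mice were sequenced as 2 groups.

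The distal colon is a layered tissue in which RNA from absorptive and goblet cells, crypt progenitors, lamina propria leukocytes, enteric neurons and smooth muscle is mixed. Some of its transcripts change within hours in a healthy animal. Clock genes cycle over the day, chaperone genes follow heat and protein damage through heat shock factor, and glucocorticoid targets follow the adrenal hormone. Antimicrobial proteins and immunoglobulins follow the microbiota. In bulk RNA, fewer cells of a type and less RNA per cell cannot be told apart.

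Each library held between 22266607 and 22869853 reads on the genes of its table, and levels are given as CPM, the count of a gene scaled to the size of its library, on 1 scale for all 15 libraries. Markers of colonic epithelium, goblet cells, endocrine cells and muscle were all among the genes tested. Epcam, an epithelial adhesion protein, had 1357, 1501 and 1380 CPM in set 1 and 1397, 1265 and 1487 CPM in set 2, so the sets overlapped. Of the defining markers of pancreas, fat and mesothelium, Ctrb1, Prss2, Adipoq, Plin1, Msln and Upk3b were in no table, while the pancreatic marker Cela1 was tested. Wider lists for these tissues had 2 pancreatic, 10 adipocyte and 1 mesothelium genes tested, so their absence was not shown. Cd3e and Cd3g of T cells were also in no table. Xist, the X-inactivation transcript, was at 1482, 321 and 2697 CPM in set 1 and 2086, 3729 and 1240 CPM in set 2, a range that spanned both sets. Of 11 genes listed for X inactivation and the Y chromosome, Xist was the only 1 among the genes tested. The sex of the mice was not tested.

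The 2 control sets were set apart by a small number of genes at the thresholds of the study. Set 2 had 3 genes higher and 5 genes lower than set 1 at a fold change (FC) of at least 1.5 and a Benjamini-Hochberg adjusted p under 0.01 in edgeR's quasi-likelihood test, which is 0.0242% and 0.0403% of the 12417 genes. Genes past both limits are referred to as called. At an adjusted p under 0.05 with the same FC, 17 genes were higher (0.137%) and 34 lower (0.274%). An unadjusted p under 0.05 was reached by 1131 genes higher in set 2 (9.11%) and 1003 lower (8.08%), and the CPM of the 3 mice of one set lay wholly above those of the other for 1286 genes higher (10.4%) and 1366 lower (11.0%) in set 2. The median log2 FC over all genes was -0.00. The scaling of the libraries holds it near that value, so a shift of all genes could not have been seen.

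The number of calls depended on 1 library and on the test. Without mouse 1 of set 2, 41 genes were higher and 12 lower, and all 8 genes were among them. Of the genes described below, Ang4 (log2 FC 4.33), Cldn4 (-1.30) and Hist1h2bb (0.96) were called in that fit and not with all 6 mice, as were Ces1f (-1.58) without mouse 2 of set 2 and Hsph1 (1.42) without mouse 3 of set 1. Without any 1 of the other 5 mice, between 1 and 4 genes were higher and between 2 and 5 lower. Of the 12417 genes, DESeq2 called 77 higher and 67 lower, and edgeR's exact test 88 higher and 73 lower, both with all 8 genes included.

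Library by library, pairs across the sets were farther apart than mice of one set were, except for the lowest pair. The spread between a pair of libraries is given as the SD, over 12370 genes, of their difference in log2 CPM. It was 0.239 to 0.247 for the 3 pairs within set 1, 0.232 to 0.258 for the 3 pairs within set 2, and 0.253 to 0.349 for the 9 pairs across the sets (median 0.288). The lowest value across the sets, 0.253, was that of mouse 3 of set 1 with mouse 1 of set 2, which lies inside the range within set 2. The 2 highest values, 0.346 and 0.349, were those of mouse 2 of set 1 with mice 2 and 3 of set 2. For mice of one set, a chi-square test on counts gave at least 11.8 per degree of freedom, where sampling alone gives about 1, so no library was a copy of another.

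**Figure D1:**
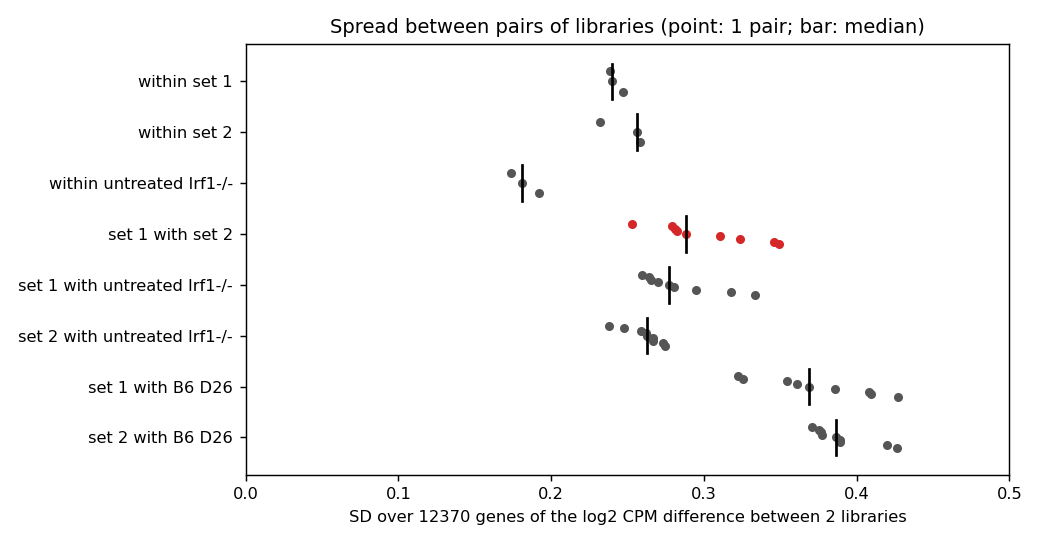
Spread between pairs of libraries. The x axis is the SD over 12370 genes of the difference in log2 CPM between 2 libraries, each point is 1 pair, each row a kind of pair, and the bar is the median. Pairs across the control sets (red) run from 0.253 to 0.349 and start within the range of pairs inside set 2, while pairs with B6 D26 mice have medians of 0.369 for set 1 and 0.387 for set 2.

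By their median spread, the untreated Irf1-/- mutants lay nearer to set 2 than to set 1, but the ranges overlapped. Their pairs with set 2 had a spread of 0.2378 to 0.2745 (median 0.263) and those with set 1 of 0.2593 to 0.3337 (median 0.277). The highest values with set 1, from 0.295 to 0.3337, were all those of mouse 2 of set 1. Both medians were below the median of 0.288 for pairs across the control sets. Pairs within the mutants had a lower median than either, 0.181. For 59.0% of the 12370 genes in all 3 tables, the mutant mean was nearer to the mean of set 2. Against set 2, 46 genes were called in the mutants (0.372%), 10 higher and 36 lower. Against set 1, 130 were called (1.05%), 38 higher and 92 lower. The 2 comparisons share the mutant libraries, and the difference between these counts was not tested. Irf1 itself had 161, 155 and 144 CPM in set 1 and 141, 128 and 130 CPM in set 2. The sets did not overlap for Irf1, but its log2 FC of -0.20 ± 0.08 (SE) did not pass (adjusted p = 0.206, edgeR). The mutants had 79.4, 117 and 87.6 CPM of Irf1, below every B6 control but not absent.

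The smallest adjusted p was that of Igj, which encodes the joining chain that links IgA and IgM into polymers and is made by plasma cells. Igj was at 583, 568 and 567 CPM in set 1 and at 207, 215 and 235 CPM in set 2. The values within each set were close together and the sets were far apart, 573 ± 8.86 against 219 ± 14.6 CPM (SD, n = 3). Igj was 2.62-fold lower in set 2 (log2 FC -1.39 ± 0.08, adjusted p = 7.44e-05, edgeR), and it was called with any 1 mouse left out. In all 15 libraries fitted together it was no longer called. The D26 B6 mice spread from 296 to 599 CPM, and the untreated Irf1-/- mutants, at 297, 365 and 231 CPM, overlapped set 2 but not set 1.

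Other plasma cell and B cell genes were measured beside Igj. Of 7 plasma cell genes tested, 6 had a negative log2 FC (median -0.78), 4 had an unadjusted p under 0.05, and Igj alone was called. The sets did not overlap for 4 of them, all lower in set 2, beside 11.0% of all genes. DESeq2 called 3 of the 7. Irf4, a transcription factor needed by plasma cells, had 25.7, 19.2 and 14.6 CPM in set 1 and 7.71, 11.6 and 9.06 CPM in set 2 (log2 FC -1.07 ± 0.21, adjusted p = 0.0568). Pou2af1, a coactivator of immunoglobulin genes, gave -0.78 ± 0.21 (adjusted p = 0.0995), and Slamf7, a surface receptor of plasma cells, -0.95 ± 0.27 (adjusted p = 0.117). Both had sets that did not overlap. Mzb1, a chaperone of immunoglobulin assembly, was in the table of set 1 but not in that of set 2, at 11.7, 9.70 and 9.55 CPM, so set 2 has no value for it. No immunoglobulin constant-region gene was among the genes tested.

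B cell genes varied widely between mice. All 11 tested had a negative log2 FC (median -0.96), but 2 had an unadjusted p under 0.05, 0 were called by edgeR's quasi-likelihood test or DESeq2, and in none were the sets apart. Ms4a1, which encodes CD20, had 17.7, 11.5 and 3.28 CPM in set 1 and 3.72, 9.02 and 1.25 CPM in set 2. The range of set 1 held 2 of the 3 mice of set 2. Summed over the 11 genes, the level was 57.9 to 222 CPM in set 1 and 41.0 to 115 CPM in set 2, and the list's median moved between -1.70 and -0.25 across the alternatives.

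**Figure D2:**
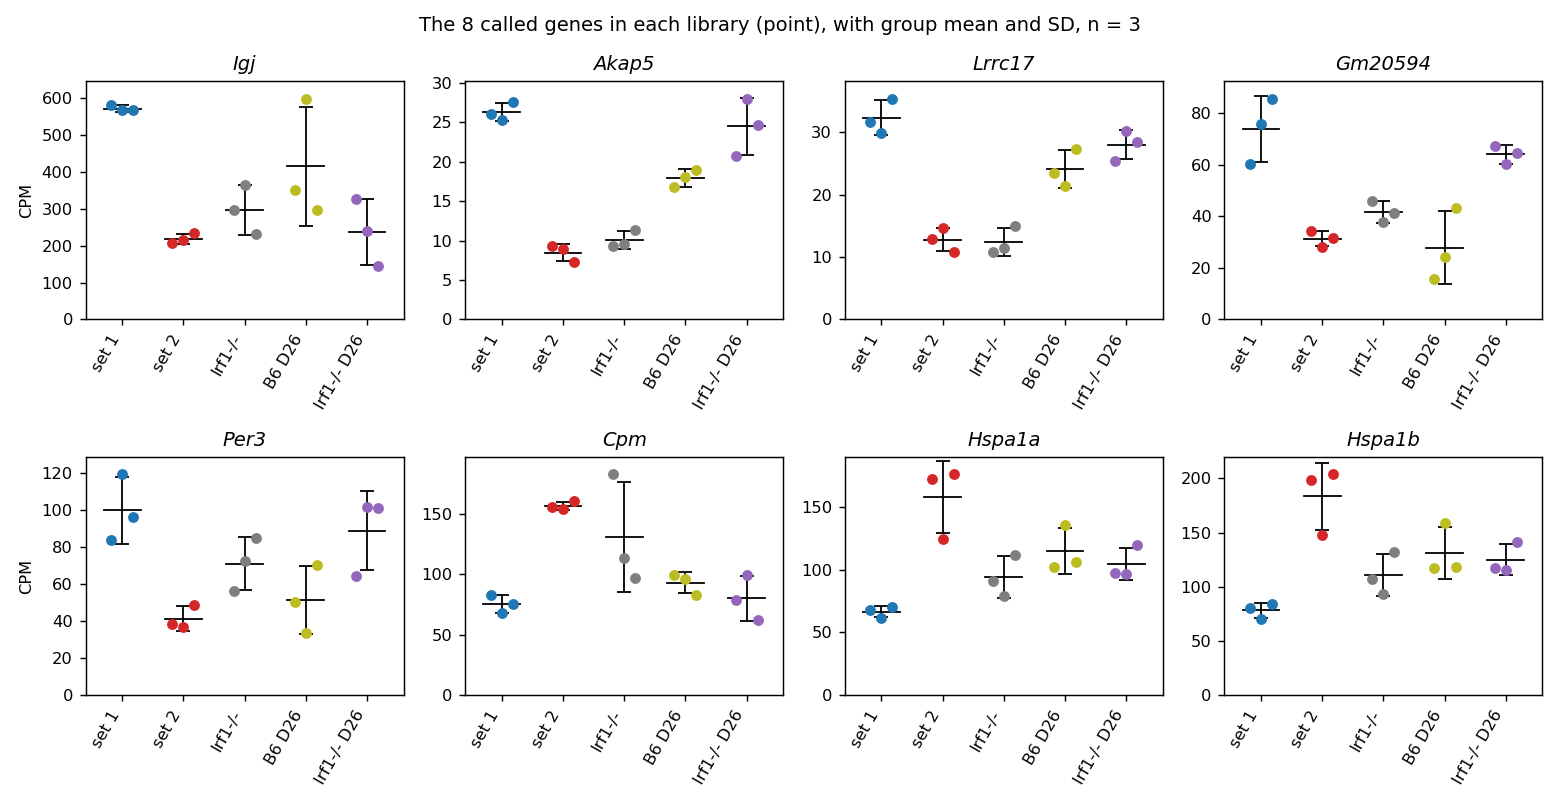
CPM of the 8 called genes in each of the 15 libraries (points), with the group mean and SD (n = 3), on linear axes that start at 0. Blue is control set 1, red control set 2, grey untreated Irf1-/-, olive B6 D26 and purple Irf1-/- D26. The red and blue points do not overlap in any panel, and the other groups often lie between them, as for Igj and Hspa1a.

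Akap5 and Lrrc17 were lower in set 2, and their levels in the untreated Irf1-/- mutants were close to those of set 2. Akap5 encodes a scaffold that holds protein kinase A at the membrane, and its CPM was 26.1, 25.3 and 27.6 in set 1 and 9.33, 8.89 and 7.28 in set 2. Set 1 was high and tight and set 2 was low and tight, a 3.10-fold difference (log2 FC -1.63 ± 0.12, adjusted p = 0.000446, edgeR) that was called without any 1 mouse. The untreated Irf1-/- mutants had 9.29, 9.61 and 11.3 CPM and the B6 D26 mice 16.8, 18 and 19 CPM. Lrrc17, a secreted leucine-rich repeat protein, had 31.7, 29.9 and 35.4 CPM in set 1 and 12.9, 14.7 and 10.8 CPM in set 2. The difference was 2.52-fold (log2 FC -1.33 ± 0.13, adjusted p = 0.00223), and it was called with 5 of the 6 mice left out in turn, the exception being mouse 3 of set 1. For Lrrc17 too the untreated mutants (10.8 to 15 CPM) were at the level of set 2 and the D26 mutants (25.5, 30.2 and 28.4 CPM) were not.

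Cpm, which encodes the membrane enzyme carboxypeptidase M and is not to be confused with the unit, was the most stable gene on the higher side. Its level was 82.7, 68.0 and 75.5 CPM in set 1 and 155, 154 and 160 in set 2. The 3 mice of set 2 lay close together and above every mouse of set 1 (2.08-fold, log2 FC 1.06 ± 0.08, adjusted p = 0.000493, edgeR). It was called in 5 of 6 fits with 1 mouse left out, and not without mouse 3 of set 1 or in the fit of all 15 libraries. Gm20594, a predicted gene, had 60.1, 75.9 and 85.6 CPM in set 1 and 34.1, 28.3 and 31.6 CPM in set 2 (log2 FC -1.24 ± 0.13, adjusted p = 0.00302). With 1 mouse left out it was called in 2 of 6 fits.

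Of 16 heat shock and chaperone genes tested, the quasi-likelihood test called Hspa1a and Hspa1b, both higher in set 2. Hspa1a and Hspa1b encode the stress-induced Hsp70, and Hsph1 encodes Hsp110, which reloads Hsp70 with nucleotide. Heat shock factor binds inverted repeats of the unit GAA, and the sequences before these genes are shown so that this unit can be read in the genes that carry the difference. They are the 250 bases before the RefSeq start on the gene's strand (GRCm38.p6), Hspa1a at chr17:34972157-34972406, Hspa1b at chr17:34959239-34959488 and Hsph1 at chr5:149636337-149636586, all on the minus strand. Capitals mark a pair of facing units, GAANNTTC or TTCNNGAA, which both read the same on the 2 strands.
Hspa1a: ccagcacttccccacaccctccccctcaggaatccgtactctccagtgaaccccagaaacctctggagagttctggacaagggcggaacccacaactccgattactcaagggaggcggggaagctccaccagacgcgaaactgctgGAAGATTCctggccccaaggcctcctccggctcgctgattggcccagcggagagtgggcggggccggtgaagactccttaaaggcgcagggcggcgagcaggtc
Hspa1b: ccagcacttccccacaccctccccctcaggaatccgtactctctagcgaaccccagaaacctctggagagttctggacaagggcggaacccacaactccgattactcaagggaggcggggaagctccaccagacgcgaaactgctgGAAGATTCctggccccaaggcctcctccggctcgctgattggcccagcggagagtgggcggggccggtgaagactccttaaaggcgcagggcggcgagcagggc
Hsph1: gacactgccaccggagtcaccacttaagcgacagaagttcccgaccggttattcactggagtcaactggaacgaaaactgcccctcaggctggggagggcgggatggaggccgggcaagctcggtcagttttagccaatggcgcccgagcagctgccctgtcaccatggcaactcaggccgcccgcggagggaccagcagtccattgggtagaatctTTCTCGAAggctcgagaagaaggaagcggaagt
Each of the 3 promoters shown held 1 such pair, GAANNTTC at 104 bases before the start in Hspa1a and Hspa1b and TTCNNGAA at 33 bases in Hsph1. Hsph1 has 2 RefSeq starts, and the one shown was chosen by its number of motif matches. GAANNTTC was in 6.69% of 32851 RefSeq promoters of this length and TTCNNGAA in 7.17%, and they were in promoters of 6.05% and 7.01% of the 9185 tested genes that had one. Of the 16 chaperone genes tested, 12 had a promoter in the RefSeq table, 6 of them with GAANNTTC and 3 with TTCNNGAA. Hspe1 and Hspd1 were counted for both pairs. A longer element of 3 units in a row was also searched, and of the 12 genes only Hspe1 and Hspd1 had it. It was in none of the 3 promoters shown. This longer element was in 0.466% of the 32851 promoters and in those of 0.49% of the 9185 tested genes. The promoters of Hspa1a and Hspa1b were identical at 247 of 250 bases. Reads on the 2 genes may have been split between near-identical copies, so these 2 genes are best read as 1 measurement.

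Hspa1a was at 67.8, 61.4 and 70.2 CPM in set 1 and 172, 124 and 176 CPM in set 2. All mice of set 2 were above all of set 1, and the spread in set 2 came from mouse 2 (2.37-fold, log2 FC 1.24 ± 0.13, adjusted p = 0.00285, edgeR). Hspa1b gave 80.0, 70.5 and 84.1 CPM against 199, 148 and 204 CPM (log2 FC 1.23 ± 0.12, adjusted p = 0.00285). With 1 mouse left out both were called in 2 of 6 fits, those without mouse 1 or mouse 2 of set 2. The B6 D26 mice had 102, 136 and 106 CPM of Hspa1a, between the 2 control sets apart from an overlap with mouse 2 of set 2.

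Hsph1 was just outside the calls, with 15.6, 16.2 and 24.0 CPM in set 1 and 46.5, 39.7 and 40.8 CPM in set 2 (log2 FC 1.19 ± 0.15, adjusted p = 0.0135). Over the 16 chaperone genes the median log2 FC was 0.27, and 14 were positive. An unadjusted p under 0.05 was reached by 9, all higher in set 2. In 8 of the 16 the sets did not overlap, all higher in set 2, beside 10.4% of all genes. Dnajb1, a co-chaperone of Hsp70, gave 0.39 ± 0.09 (adjusted p = 0.0782), and Hsp90aa1, the inducible Hsp90, 0.38 ± 0.10 (adjusted p = 0.0926). The small heat shock protein Hspb1 gave 0.58 ± 0.16 (adjusted p = 0.106), with overlapping sets. Constitutive members differed less, with Hspa8 at 0.24 ± 0.12 (adjusted p = 0.353). These 4 genes were named after their values were seen.

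**Figure D3:**
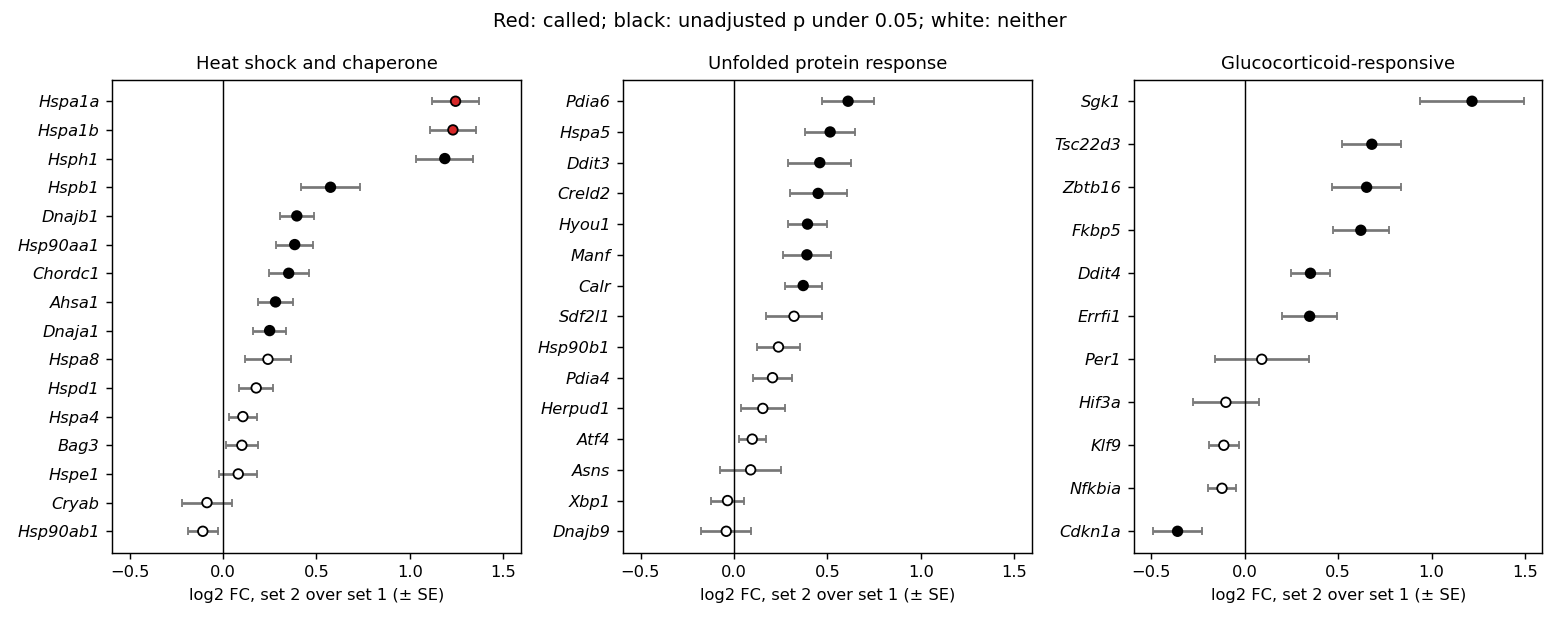
Log2 FC of set 2 over set 1 (x axis, with SE) for each tested gene of 3 lists (rows), with red for called genes, black for an unadjusted p under 0.05 and white for the others. Hspa1a, Hspa1b and Hsph1 stand near 1.2, the other chaperones lie at or below 0.58, and Sgk1 leads the glucocorticoid-responsive genes.

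Genes of the endoplasmic reticulum stress response had smaller differences in the same direction. Of 15 tested, 13 were positive (median 0.32), 7 had an unadjusted p under 0.05, and none was called (DESeq2 called 1). The median was 0.18 without mouse 2 of set 1 and 0.17 with Xist as a covariate. Hspa5, the main chaperone of the endoplasmic reticulum, had 334, 320 and 433 CPM in set 1 and 443, 517 and 593 CPM in set 2 (log2 FC 0.52 ± 0.13, adjusted p = 0.097), and the sets did not overlap. Among 11 glucocorticoid-responsive genes, 6 were higher and 1 lower at an unadjusted p under 0.05 (median 0.35), and again none was called (DESeq2 called 2). Sgk1, a kinase that raises sodium uptake, was at 53.5, 136 and 77.8 CPM in set 1 and 258, 181 and 182 CPM in set 2 (log2 FC 1.22 ± 0.28, adjusted p = 0.0782). Tsc22d3, an anti-inflammatory glucocorticoid target, gave 0.68 ± 0.16 (adjusted p = 0.0782), and Fkbp5, a co-chaperone of the receptor, 0.62 ± 0.15 (adjusted p = 0.0817). The median of this list was 0.15 without mouse 1 of set 2.

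The clock genes differed in both directions. In the clock, Arntl with Clock or Npas2 drives the Per, Cry and Nr1d genes through the E-box CACGTG, these products repress it in turn, and Dbp, Tef and Hlf act on the D-box TTATGTAA. Promoters of 2 genes from this list are shown because they hold one of these motifs, in capitals, and belong to genes with large differences. They are the 250 bases before the RefSeq start in GRCm38.p6, Per3 at chr4:151044666-151044915 on the minus strand and Tef at chr15:81802423-81802672 on the plus strand.
Per3: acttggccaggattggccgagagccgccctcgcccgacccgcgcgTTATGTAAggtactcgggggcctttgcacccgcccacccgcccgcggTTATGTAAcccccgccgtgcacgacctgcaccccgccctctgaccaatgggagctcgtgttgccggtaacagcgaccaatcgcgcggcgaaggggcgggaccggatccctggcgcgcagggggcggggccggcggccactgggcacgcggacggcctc
Tef: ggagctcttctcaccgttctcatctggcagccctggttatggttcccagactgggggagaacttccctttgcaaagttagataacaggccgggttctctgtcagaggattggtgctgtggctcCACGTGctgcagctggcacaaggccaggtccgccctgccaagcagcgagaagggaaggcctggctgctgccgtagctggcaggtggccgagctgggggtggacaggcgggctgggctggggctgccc
Per3 held 2 D-boxes, at 205 and 158 bases before the start, and Tef 1 E-box at 127 bases. Tef has 2 RefSeq starts, and the one shown was chosen by its number of motif matches. Searched on both strands, the D-box was in 0.819% of the 32851 promoters and the E-box in 6.02%, and in the promoters of 0.599% and 9.81% of the 9185 tested genes that had one. Of 17 clock genes tested, 13 had a promoter in the table, and within 250 bases the E-box was in those of Per1, Tef and Cry1 and the D-box in that of Per3.

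Per3, a member of the period family, was the called gene of this list. It had 83.8, 119 and 96.2 CPM in set 1 and 38.5, 36.6 and 48.9 CPM in set 2, with no overlap (2.41-fold lower, log2 FC -1.27 ± 0.14, adjusted p = 0.00517, edgeR). With 1 mouse left out it was called in 3 of 6 fits. The untreated Irf1-/- mutants lay between the sets at 56.0, 72.3 and 84.7 CPM, reaching into set 1.

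Dbp had the largest difference of the list in log2 FC but a wide spread. It was at 27.6, 78.5 and 62.6 CPM in set 1 and 2.91, 6.71 and 18.2 CPM in set 2, without overlap (log2 FC -2.60 ± 0.52, adjusted p = 0.0584, edgeR). Its relatives Tef and Hlf were low in the same mice. Tef had 93.4, 179 and 139 CPM against 31.4, 42.2 and 73.8 CPM (log2 FC -1.48 ± 0.29, adjusted p = 0.0568), and Hlf 8.23, 13 and 16.3 CPM against 4.75, 6.66 and 5.04 CPM (log2 FC -1.19 ± 0.24, adjusted p = 0.0596). None of the 3 was called by the quasi-likelihood test, whereas edgeR's exact test called all 3 and DESeq2 called Hlf.

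Arntl, the activator of the clock, went the other way. It had 42.9, 25.9 and 24.5 CPM in set 1 and 81.8, 63.8 and 45.2 CPM in set 2 (log2 FC 1.03 ± 0.24, adjusted p = 0.0782). In each set the mouse with the lowest Dbp had the highest Arntl. Its alternative partner Npas2 gave 0.83 ± 0.25 (adjusted p = 0.127) and Cry1 0.69 ± 0.22 (adjusted p = 0.15). Nr1d1 (-0.91 ± 0.28, adjusted p = 0.133) and Nr1d2 (-0.80 ± 0.20, adjusted p = 0.0915), which repress Arntl, had overlapping sets, as had Per2 (-0.74 ± 0.31, adjusted p = 0.262), while Per1 (0.09 ± 0.25) and Clock (0.14 ± 0.07) differed little. Over the 17 genes, 9 were lower and 3 higher at an unadjusted p under 0.05, with a median of -0.41. Per3 was the 1 call of the quasi-likelihood test, DESeq2 called 2 lower, and edgeR's exact test called 5 lower and 1 higher, which was Arntl. Apart from Per3, Dbp and Tef, these genes were named after their values were seen.

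Clock genes also varied within other groups. In B6 D26 mice Dbp was at 8.21, 7.04 and 44.5 CPM and Arntl at 85.3, 75.7 and 36.6 CPM, so mice 1 and 2 were at the levels of set 2 and mouse 3 nearer to set 1. In the untreated Irf1-/- mutants Dbp was at 17.9, 30.7 and 41.1 CPM, and Arntl at 29.8, 30.3 and 27.8 CPM, within the range of set 1.

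**Figure D4:**
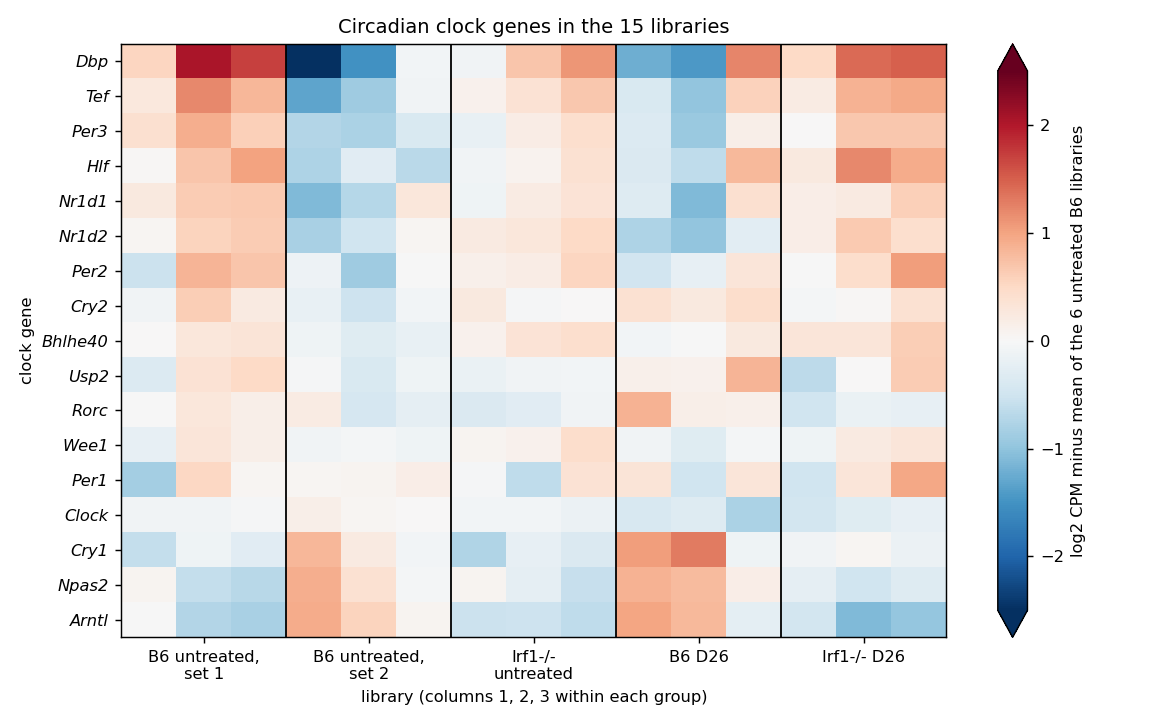
The 17 tested clock genes (rows) in the 15 libraries (columns, mice 1 to 3 of each group), coloured by log2 CPM minus the mean of the 6 untreated B6 libraries, red for above and blue for below. Dbp, Tef, Per3 and Hlf are lower and Cry1, Npas2 and Arntl higher in set 2 than in set 1 by their means, and B6 D26 mice 1 and 2 resemble set 2.

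Genes of dividing cells differed mostly in 1 direction, below the threshold for a call. Of 29 cell cycle and DNA replication genes, 28 were positive (median log2 FC 0.46), 21 had an unadjusted p under 0.05, and none was called (DESeq2 called 4). E2f1, which turns on genes of S phase, had 6.52, 6.78 and 8.56 CPM in set 1 and 13.2, 11.8 and 11.4 CPM in set 2 (log2 FC 0.74 ± 0.15, adjusted p = 0.0601). The mitotic kinesin Kif11 gave 0.57 ± 0.12 (adjusted p = 0.0628). Mki67, the common marker of proliferation, ran from 149 to 325 CPM in set 1, which held all of set 2 (236 to 283 CPM).

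Replication-dependent histone genes lack poly(A) tails and are retained by rRNA depletion. Over 57 of them the median log2 FC was 0.63, and 51 had an unadjusted p under 0.05. Of these genes 0 were called by edgeR's quasi-likelihood test and 6 by DESeq2, which called 77 of all 12417 genes higher. The sets did not overlap for 10, all higher in set 2, beside 10.4% of all genes. Hist1h2bb was at 253, 206 and 194 CPM in set 1 and 268, 409 and 439 CPM in set 2 (log2 FC 0.77 ± 0.17, adjusted p = 0.0677). Mouse 1 of set 2 was close to set 1 and the other 2 were far above it. The summed level of the 57 genes repeated this, with 7982 to 10260 CPM in set 1 and 9742, 15269 and 16481 CPM in set 2. Histone genes are near-identical copies, so their values are not separate measurements.

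Secretory genes of goblet cells mostly had higher means in set 2. Of 17 goblet cell genes, 15 were positive (median 0.18), 8 with an unadjusted p under 0.05 and none called (DESeq2 called 1). The median was 0.29, 0.11 and 0.32 without mouse 1, 2 or 3 of set 1. Muc2, the gel-forming mucin, was at 1828, 989 and 1721 CPM in set 1 and 2472, 2055 and 2731 CPM in set 2 (log2 FC 0.68 ± 0.20, adjusted p = 0.13). Mouse 2 of set 1 was the lowest for Muc2, and the summed goblet cell level was 11283 to 18297 CPM in set 1 and 21898 to 27323 CPM in set 2. Agr2, which folds mucins, gave 0.62 ± 0.15 (adjusted p = 0.0814).

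Of 14 mucosal antimicrobial and oxidase genes, 6 were positive and 8 negative (median -0.05), 5 higher and 1 lower at an unadjusted p under 0.05, and none was called by the quasi-likelihood test or DESeq2, while edgeR's exact test called 2, Ang4 and Reg4. Ang4, a ribonuclease with antimicrobial activity, had the largest log2 FC of all list members, 3.83 ± 0.81, and was not called (adjusted p = 0.0637). It was at 17.1, 3.26 and 3.99 CPM in set 1 and 21.2, 89.9 and 235 CPM in set 2. The sets did not overlap only by the small gap between mouse 1 of set 1 and mouse 1 of set 2. Retnlb, a goblet cell protein induced by bacteria, was in the table of set 2 but not in that of set 1, and in set 2 it ran through 1.29, 24.3 and 58.9 CPM in the same order of mice as Ang4. Reg4, a secreted lectin, had 240, 118 and 262 CPM in set 1 and 310, 538 and 570 CPM in set 2 (log2 FC 1.19 ± 0.29, adjusted p = 0.0814). The oxidase Duox2 (0.46 ± 0.09, adjusted p = 0.0525) and its maturation factor Duoxa2 (0.56 ± 0.12, adjusted p = 0.0628) had tight values that did not overlap, 8.72 to 9.85 CPM of Duoxa2 in set 1 and 13.5 to 13.8 CPM in set 2. The summed goblet cell level was also higher in set 2, and it ranked the mice of both sets in the same order as Ang4. It was 18297, 11283 and 17679 CPM in set 1 and 21898, 21940 and 27323 CPM in set 2. The steps differed in size, since mice 1 and 2 of set 2 were close in this level while Ang4 was at 21.2 and 89.9 CPM. The part of the goblet cell level in these genes was not tested.

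All 9 tested genes of the kallikrein 1 family, tissue proteases whose near-identical members share reads, were higher in set 2 without overlap (median 0.50). Over all genes this share was 10.4%. Klk1b4 was at 18.8, 17.4 and 20.4 CPM in set 1 and 32.0, 27.9 and 32.5 CPM in set 2 (log2 FC 0.71 ± 0.10, adjusted p = 0.0243). The untreated mutants, at 32.0, 37.9 and 30.2 CPM, were at the level of set 2 and the D26 mutants, at 21.2, 24.6 and 22.3 CPM, were not. None was called, and DESeq2 called 2 of the 9.

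Genes of skeletal muscle, which surrounds the anal canal and not the colon, were higher by their median in set 2 (0.71 over 12 genes, 10 higher and 1 lower at an unadjusted p under 0.05, none called by the quasi-likelihood test, 2 by DESeq2 and 3 by edgeR's exact test). Atp2a1, the calcium pump of fast fibres, had 18.7, 14.9 and 17.2 CPM in set 1 and 27.9, 26.7 and 31.0 CPM in set 2 (log2 FC 0.75 ± 0.11, adjusted p = 0.0243). The lower member was Eno3, a muscle enolase. The summed level was 503 to 517 CPM in set 1 and 545 to 696 CPM in set 2. Genes of stratified squamous epithelium, which lines the anal canal, overlapped in sum, 355 to 597 CPM in set 1 and 351 to 673 CPM in set 2, and their median log2 FC was 0.28 over 14 genes, 11 of them positive. At an unadjusted p under 0.05, 4 were higher and none lower, and none was called by the quasi-likelihood test while DESeq2 called 2. The sets did not overlap for 3, all higher in set 2, beside 10.4% of all genes. The median ran from 0.12 without mouse 2 of set 1 to 0.53 without mouse 1 of set 2, and was 0.14 and 0.18 without mouse 2 or 3 of set 2. Smooth muscle genes had a median of -0.08 over 23, with 17 negative, and 4 were lower and 0 higher at an unadjusted p under 0.05 (edgeR). The sets did not overlap for 9 lower and 1 higher, beside 11.0% and 10.4% of all genes, and none was called.

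Nerve and myeloid genes pointed the other way. Of 11 genes of enteric neurons and glia, 10 were negative (median -0.46) and 8 had an unadjusted p under 0.05. Syt1, a synaptic vesicle protein, had 9.11, 11.7 and 10.6 CPM in set 1 and 7.17, 5.24 and 6.70 CPM in set 2 (log2 FC -0.72 ± 0.17, adjusted p = 0.0782). The neuronal marker Elavl4 was in no table. The median was -0.29 without mouse 2 of set 1, which had the highest summed level. Of 16 macrophage and dendritic cell genes, 15 were negative (median -0.20) and 6 were lower and 1 higher at an unadjusted p under 0.05. Cx3cr1, the fractalkine receptor of gut macrophages, had 24.3, 28.3 and 20.1 CPM in set 1 and 17.1, 14.8 and 11.4 CPM in set 2 (log2 FC -0.74 ± 0.16, adjusted p = 0.0709). All 9 MHC class II genes were negative (median -0.32), with no set apart and none at an unadjusted p under 0.05. Their median was -0.13 and -0.56 without mouse 1 or 3 of set 1, and -0.68 and -0.09 without mouse 2 or 3 of set 2. That of the macrophage list was -0.07 and -0.32 without mouse 2 or 3 of set 1 and -0.06 with Xist as a covariate. Interferon-inducible genes had a median of -0.08 over 32. None of these genes was called, while DESeq2 called 1 nerve gene and 2 myeloid genes, all lower in set 2.

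Metabolic genes of the epithelium mostly had negative log2 FC, and the quasi-likelihood test called none. Of 34 xenobiotic metabolism genes, 12 were lower and 1 higher at an unadjusted p under 0.05 (median -0.19), and DESeq2 called 4 lower and 1 higher. Ces1f, a carboxylesterase, was at 42.7, 52.2 and 43.8 CPM in set 1 and 17.7, 22.9 and 13.2 CPM in set 2 (2.58-fold lower, log2 FC -1.37 ± 0.17), and its adjusted p of 0.0107 missed the limit. Nqo1, a quinone reductase controlled by Nrf2, gave -0.83 ± 0.11 (adjusted p = 0.017). The cytochrome Cyp2c55 was the exception, with 178, 267 and 169 CPM in set 1 and 512, 345 and 468 CPM in set 2 (log2 FC 1.11 ± 0.18, adjusted p = 0.0326). Of 18 fasting and PPAR target genes, 15 were negative and 3 positive (median -0.14), 7 were lower and none higher at an unadjusted p under 0.05, none was called, and DESeq2 called 1, which was the carnitine carrier Slc25a20, with 215, 239 and 183 CPM against 141, 110 and 134 CPM (log2 FC -0.73 ± 0.12, adjusted p = 0.0276).

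Further genes past an adjusted p of 0.05 follow, of which Slc36a1, Tgm3 and Thbs1 were named after their values were seen, as were Slamf7, Ms4a1, Mki67, Muc2, Reg4, Eno3 and Cyp2c55 above. The amino acid transporter Slc36a1 was the nearest to a call, at 235, 282 and 251 CPM in set 1 and 137, 115 and 154 CPM in set 2 (1.89-fold lower, log2 FC -0.92 ± 0.11, adjusted p = 0.0102). The transglutaminase Tgm3 was at 2422, 3128 and 2251 CPM against 1715, 1254 and 1361 CPM (log2 FC -0.85 ± 0.15, adjusted p = 0.0425). The sulfate transporter Slc26a2 gave -0.76 ± 0.14 (adjusted p = 0.0425). The tight junction gene Cldn4 had 66.7, 67.4 and 46.8 CPM in set 1 and 38.8, 24.7 and 24.0 CPM in set 2 (log2 FC -1.04 ± 0.19, adjusted p = 0.0473). On the higher side, the matrix protein Thbs1 had 91.7, 66.9 and 89.6 CPM against 150, 132 and 181 CPM (log2 FC 0.90 ± 0.14, adjusted p = 0.0255). None of these sets overlapped.

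**Figure D5:**
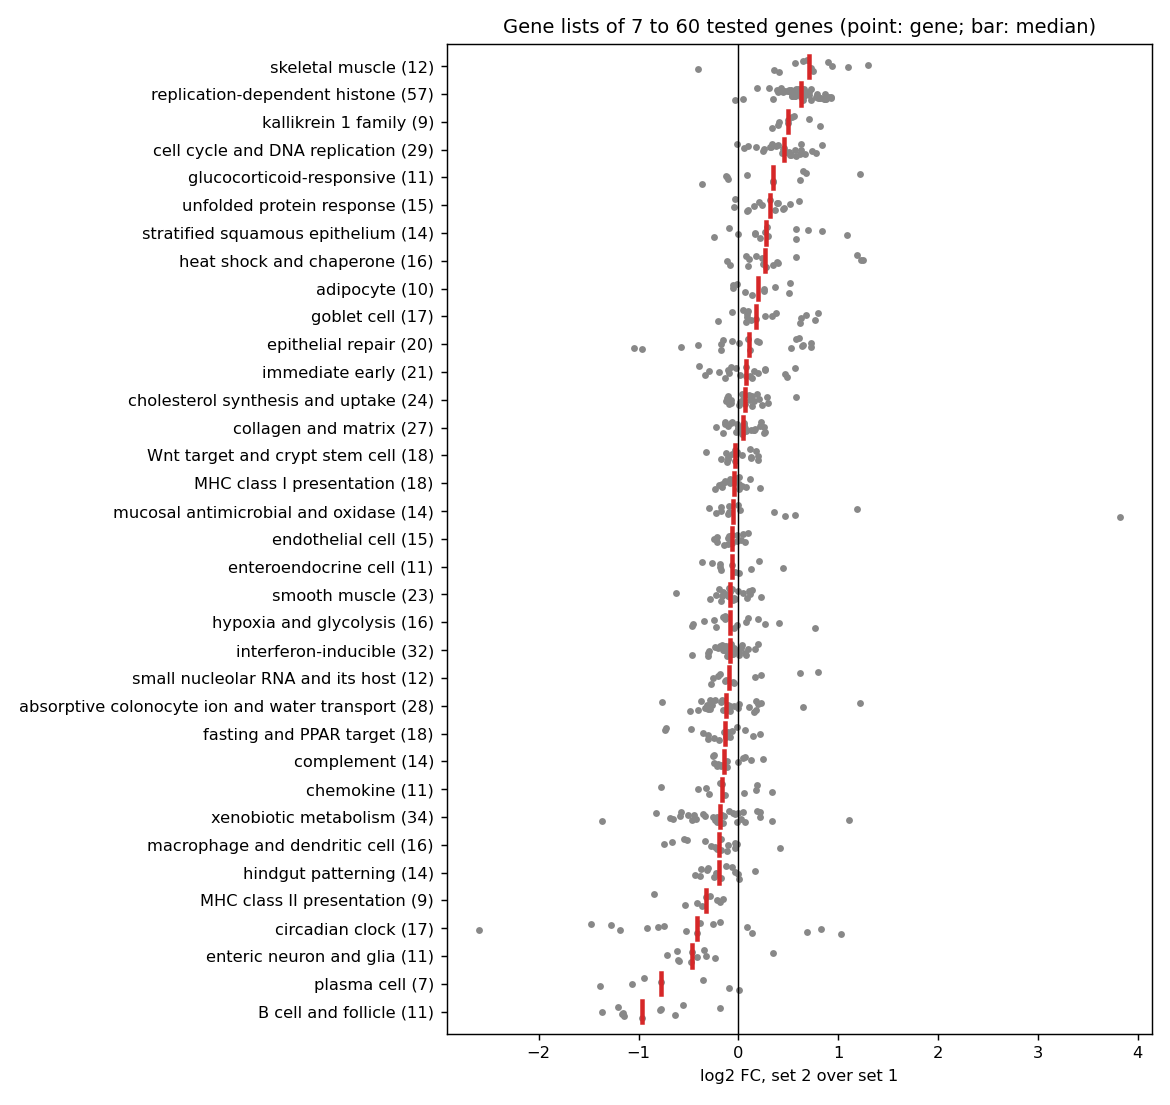
Log2 FC of set 2 over set 1 (x axis) for each gene (point) of the lists with 7 to 60 tested genes (rows, number in brackets), with the list median as a red bar. Medians run from 0.71 for skeletal muscle genes to -0.96 for B cell genes.

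Large groups of genes without relation to these lists had medians near that of all genes. Oxidative phosphorylation genes had a median log2 FC of -0.01 over 84, zinc finger (Zfp) genes -0.03 over 281, and cytosolic ribosomal protein genes -0.08 over 77. Of the 77 ribosomal protein genes, 67 were negative, and 3 were lower and 0 higher at an unadjusted p under 0.05 (edgeR). The sets did not overlap for 16 of the 77 lower and 1 higher, beside 11.0% and 10.4% of all 12417 genes. None of the tested immune and complement genes named by the study was called. Mcpt1, Mcpt2 and Clec4n (Dectin-2), which it also names, were not among the genes tested. C3 gave -0.24 ± 0.19 (adjusted p = 0.551), C4b -0.11 ± 0.20 (adjusted p = 0.821) and Tyrobp -0.55 ± 0.19 (adjusted p = 0.175), and the p-values do not show that the sets were equal. C4a and C4b are near-identical copies.

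Of the 51 genes past an adjusted p of 0.05 with the FC limit, the mean of the untreated Irf1-/- mutants lay nearer to set 2 for 33 (64.7%, against 59.0% of all genes) and nearer to set 1 for 18. The B6 D26 mice divided in the same numbers, 33 and 18, whereas over all genes 44.7% had a B6 D26 mean nearer to set 2. Each set was deposited with 1 other group, so the set and the comparison it served cannot be told apart.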

How the data were processed

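RNA had been isolated from frozen distal colons, depleted of ribosomal RNA, made into stranded libraries and sequenced as 50 bp pairs. The values used are read counts that the authors deposited, not normalized, after leaving out genes with low CPM in each table (a limit of 5). The submitters' processing notes name TopHat2 2.0.9, Bowtie 1.0.0, featureCounts, edgeR and the build mm9, so no coordinates of these files were used. The deposited CPM, fold changes and p-values of the authors' own comparisons were not used.

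Genes in both control tables (12417 of 12643 and 12588) were tested between the control sets, 3 mice against 3, with TMM scaling and the quasi-likelihood test of edgeR 4.0.16 (R 4.3.3), with Benjamini-Hochberg adjustment over all genes and the study's thresholds. SE is the log2 FC divided by the square root of F. CPM were scaled by TMM over the 12370 genes in all 3 tables. Comparisons with the untreated mutants used these genes.

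Genes were named by a rule: called genes with non-overlapping sets, the 3 members with the smallest p of each of 46 hand-written lists with a tested gene, genes the study names, and the 5 highest genes found in 1 control table only. The members and lists were chosen with earlier results of these data known. Promoters came from RefSeq, where 9185 of the tested genes matched.

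Alternatives were RLE size factors, DESeq2 1.42.0, edgeR's exact test, limma 3.58.1 voom, all 15 libraries, a block for the replicate number, leaving out each mouse, filters of 5 and 10 CPM, a lowess correction on GC content (span 0.3), that correction with the block, log2 Xist as a covariate, and an adjusted p under 0.05. On simulated control sets of 12417 genes, the test recovered 58 of 67 genes changed 1.75-fold, 66 of 67 changed 2-fold and 66 of 66 changed 3-fold, with 7 false calls, and made 1 call with no gene changed. The simulated counts were drawn gene by gene from a negative binomial with each gene's estimated dispersion. They held no shift shared by the genes of a mouse, so they do not measure the error of the calls made on the real libraries. Tables were made in Python 3.11.15 with pandas 2.3.3, scipy 1.17.1 and numpy 2.4.6, and plots in matplotlib 3.10.9.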

Additional observations from a re-analysis of the deposited data

How the results depend on the processing

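All 8 called genes kept their direction in every alternative. The number higher and lower in set 2 was 3 and 5, and 77 and 67 with DESeq2, 88 and 73 with edgeR's exact test, 3 and 3 with all 15 libraries (without Igj, Gm20594, Per3 and Cpm of the 8), 3 and 2 with the GC correction and the block together (without Lrrc17, Gm20594 and Per3), 2 and 4 with Xist as a covariate (without Gm20594, Hspa1a and Hspa1b), and 17 and 34 at an adjusted p under 0.05. Leaving out 1 mouse gave 1 to 41 higher and 2 to 12 lower, with the upper ends without mouse 1 of set 2. The cause was not tested. The replicate number as a block gave 5 higher and 8 lower, but the numbers do not pair the mice: deviations from the set means correlated at -0.07, -0.12 and 0.16 for mice of the same number, and mouse 1 of set 1 correlated best with mouse 2 of set 2 (0.26).

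Named genes near 0 changed sign. Log2 FC of C4a was 0.000664 with RLE size factors, 0.000478 with DESeq2, 0.000502 and 0.00209 with the 10 and 5 CPM filters, 0.0212 with the GC correction and 0.0216 with Xist as a covariate. With Xist, Cela1 was 0.0849, Epcam 0.0296, Pdpn 0.00832 and Tnfrsf1b 0.000542. With 1 mouse left out the log2 FC ran from -0.316 to 0.176 for C4a, -0.411 to 0.0693 for C4b, -0.168 to 0.0682 for Alas2, -0.0961 to 0.0887 for Cela1, -0.0852 to 0.0361 for Epcam, -0.249 to 0.0477 for Itgae, -0.0643 to 0.501 for Mki67, -0.198 to 0.436 for Per1 and -0.0423 to 0.0866 for Usf1.

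With 3 mice a side, genes that varied widely between mice, such as Dbp and Ang4, were not called by the quasi-likelihood test at larger folds than that of Igj, and edgeR's exact test called both. Log2 FC correlated weakly with GC content over 12319 genes (Spearman rho -0.07, across genes), and the GC correction alone gave 3 and 5. Sex, cage, date and time of day are not in the labels, so their part in any difference was not tested, and the set cannot be told apart from whatever else the mice of a set shared.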
